A study of Homo sapiens with 24 samples.

Results

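A set of genes named for ATF and C/EBP stress transcription factors was followed over 6 treatments of HepG2 cells, a human liver cancer line. The genes are ATF4, ATF5, ATF3, JDP2, DDIT3, CEBPB, CEBPG, CEBPD and NUPR1. They are the 9 genes of the count matrix, of 18915 in all, that carry these names, and all were found. The name of the set does not hold for each gene here. ATF5 was called in no comparison, CEBPD was lower with bortezomib, and NUPR1 encodes a chromatin protein of neither family. The study asked how the eIF2α and ATF4 branch of the unfolded protein response shapes the reaction of hepatoma cells to proteasome inhibition. Cells were kept for 10 h in fresh medium holding only the vehicle, DMSO, or bortezomib at 50 nM, nelfinavir at 20 µM or ISRIB at 50 nM, and in 2 further groups bortezomib was combined with nelfinavir or with ISRIB at those doses. Bortezomib blocks the proteasome. Nelfinavir, an inhibitor of the HIV protease, increases eIF2α phosphorylation, and ISRIB acts on eIF2B and blunts the translational response to it. Each treatment had 4 libraries, described as biological replicates of 1 cell line, and the 24 libraries were sequenced as 1 pool. The libraries held 5154533 to 6943164 counts each, made by 3′ end sequencing, in which the read number of a transcript does not grow with its length.

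Phosphorylation of eIF2α lowers general translation, while mRNAs with upstream open reading frames, among them those of ATF4, ATF5 and DDIT3, are translated more. ATF4 then pairs with C/EBP proteins and other basic leucine zipper factors at composite C/EBP-ATF sites, in genes of amino acid supply, redox balance and cell death, and raises the transcription of several factors described here. The values below are mRNA levels, and neither translation nor protein was measured in these libraries. Levels are counts relative to the size of the library (CPM), scaled with the trimmed mean of M-values, and 4 numbers given for a group are replicates 1, 2, 3 and 4. Fold changes come from the edgeR quasi-likelihood test, with p adjusted by the Benjamini-Hochberg method over 12685 genes tested and a call at adjusted p under 0.05. All 9 genes were tested, but JDP2 reached the count minimum in every library of 4 groups and not in the DMSO and ISRIB groups, so it was tested through the groups in which it is high.

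The cells carried the hepatocyte markers that HepG2 is known for. All 8 markers on the list were detected, ALB at a mean of 3323 CPM and AFP at 3014 CPM in DMSO, and their sum was 13670 ± 702 CPM (SD, n = 4) in DMSO, 12540 ± 398 in ISRIB and 13314 ± 682 in nelfinavir. That sum was lower with bortezomib, at 10466 ± 265, 10329 ± 687 with ISRIB added and 7653 ± 799.5 with nelfinavir added. Of the 8 markers, only TF had a higher mean in bortezomib alone, at 1387 CPM against 1223 CPM in DMSO. Markers of other cells were near 0, at 11, 7 and 1 counts over all 24 libraries for COL1A1, COL3A1 and KRT7, and PTPRC, HBB, DCN, PECAM1, CDH5 and VWF had no counts in the table used here. The exceptions were LYZ and EPCAM. Among the 4 blood markers, LYZ was at 374 CPM in DMSO and 108 CPM in bortezomib, beside CD68 at 3.84 CPM in DMSO. Among the 3 cholangiocyte markers, EPCAM was at 238 CPM in DMSO and higher, at 300 CPM, in bortezomib, beside KRT19 at 0.505 CPM in DMSO. The source of the LYZ and EPCAM reads was not tested.

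Several libraries stood apart, and the results below are to be read with this in view. Mitochondrial genes took 21.5% ± 1.32 (SD, n = 4) of counts in DMSO, 21.9% ± 1.6 in ISRIB and 20.5% ± 1.66 in nelfinavir, against 33.8% ± 1.2 in bortezomib, 27.2% ± 2.26 with nelfinavir added and 36.1% ± 3.13 with ISRIB added. Scaled by library totals alone, the median gene fell by 0.50 on the log2 scale between DMSO and bortezomib relative to the scaling used here, so levels are relative to the other transcripts of a library. Less RNA per cell and a change in a few abundant transcripts cannot be told apart in such bulk libraries. Within groups, the first principal component of the deviations from the group means, over 8296 genes with the 9 genes left out, took 28.5% of the variance. Replicates 1 and 2 of bortezomib with nelfinavir scored -16.2 and -19.4 on it, replicates 3 and 4 scored 21.1 and 14.6, and replicates 3 and 4 of bortezomib with ISRIB scored 25.4 and -13.5, while DMSO libraries lay between -1.97 and 3.17. What this component stands for was not tested.

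The deviations of the genes followed this component in opposite ways. The sign of this component was set so that ATF4 correlates positively, so the direction for any single gene carries no meaning. Over the 24 libraries, which share their group means by construction, the Pearson correlation with its score was 0.79 for ATF4, 0.56 for DDIT3 and 0.49 for NUPR1, but -0.92 for CEBPG, -0.83 for CEBPB and -0.45 for CEBPD. It was weak for ATF3, at -0.10, for JDP2, at 0.23, and for ATF5, at 0.35. Between the genes themselves, the within-group correlation was 0.82 for CEBPB and CEBPG, 0.80 for ATF4 and NUPR1, -0.64 for ATF4 and CEBPG, -0.54 for ATF4 and CEBPB, and -0.0963 for ATF4 and CEBPD. These values pool all groups, those with libraries far out on the component included. Single groups could go the other way, as replicate 4 of bortezomib was highest for both ATF4 and CEBPG, and in ISRIB replicate 3 was highest and replicate 4 lowest for both ATF4 and CEBPB.

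**Figure D1:**
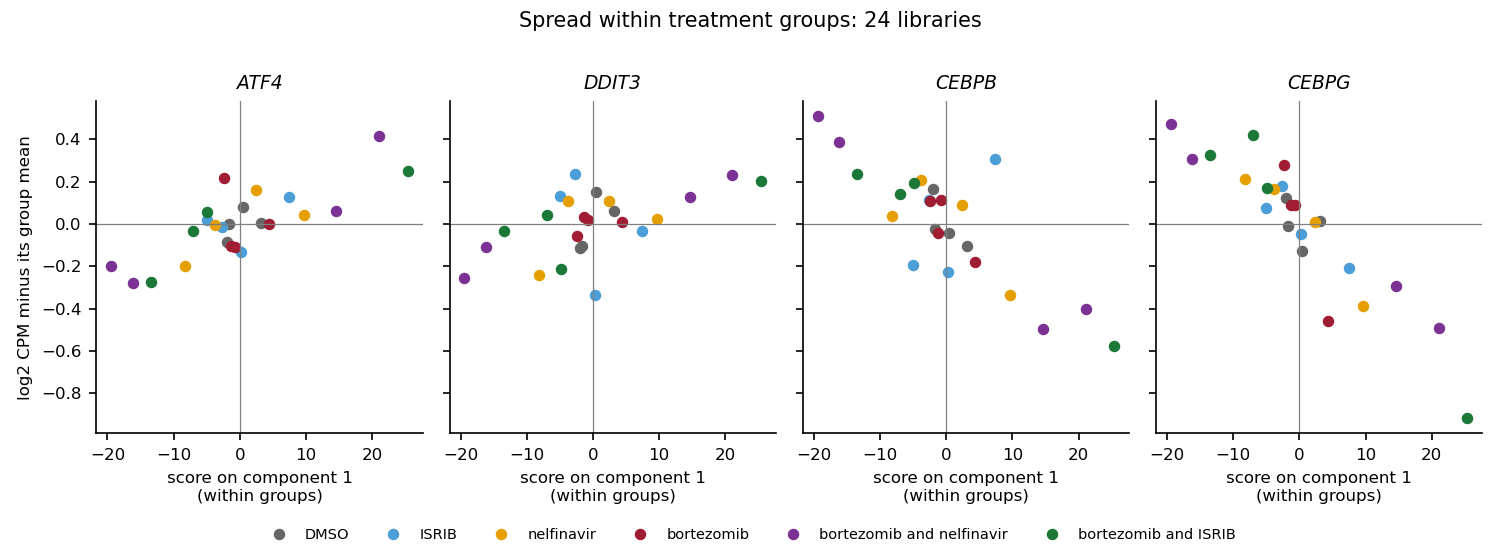
Deviation of log2 CPM from the group mean for ATF4, DDIT3, CEBPB and CEBPG, against the library's score on the first within-group component, 1 point for each of 24 libraries and a colour for each treatment. The sign of the score was set so that ATF4 rises with it. CEBPB and CEBPG fall with the score, and the bortezomib and nelfinavir libraries lie on both sides, from -19.4 to 21.1.

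Promoter windows in the RefSeq table (GRCh38.p14, 250 bases before to 50 after a start site) were found for 7 of the 9 genes, in 16 windows, and not for CEBPD and NUPR1. Both strands were searched for the core of the C/EBP-ATF composite site, TGATGNAA, the cyclic AMP response element, TGACGTCA, the AP-1 site, TGANTCA, and the C/EBP palindrome, TTGCGCAA. None of these letter patterns contains another. Of all 35116 windows in the table, 3.62% held the composite core, 1.85% the cyclic AMP element, 7.71% the AP-1 letters and 0.151% the palindrome. The composite core was found in 1 window each of ATF3, JDP2 and CEBPG, and the AP-1 letters in both windows of DDIT3, which overlap each other, and 1 window of ATF5. The windows of ATF4 and CEBPB held none of the 4 letter patterns, and the cyclic AMP element and the palindrome were in none of the 16. The windows below were chosen because they hold a match and the mRNAs of these genes moved with the treatments, and capitals mark the matches. The windows of ATF4 and CEBPB, whose mRNAs also moved, and the other windows of the genes shown are left out. The choice therefore shows no link between a match and a response. A match is a run of letters, and binding there was not measured. The CEBPG window is chr19:33373863-33374162 on the plus strand, with TGATGCAA from 42 bases before the start, the JDP2 window is chr14:75427772-75428071 on the plus strand, with TGATGCAA from 16 bases before the start, and the ATF3 window is chr1:212565157-212565456 on the plus strand, with TGATGGAA from 191 bases before the start. The DDIT3 window is chr12:57520465-57520764 on the minus strand, with TGACTCA from 241 bases before the start.
CEBPG: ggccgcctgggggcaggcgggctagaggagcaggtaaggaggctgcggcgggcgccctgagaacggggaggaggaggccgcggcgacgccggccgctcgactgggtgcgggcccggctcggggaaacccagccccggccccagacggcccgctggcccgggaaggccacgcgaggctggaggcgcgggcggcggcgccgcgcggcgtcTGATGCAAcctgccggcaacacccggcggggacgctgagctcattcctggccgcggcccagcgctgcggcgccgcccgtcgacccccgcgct
JDP2: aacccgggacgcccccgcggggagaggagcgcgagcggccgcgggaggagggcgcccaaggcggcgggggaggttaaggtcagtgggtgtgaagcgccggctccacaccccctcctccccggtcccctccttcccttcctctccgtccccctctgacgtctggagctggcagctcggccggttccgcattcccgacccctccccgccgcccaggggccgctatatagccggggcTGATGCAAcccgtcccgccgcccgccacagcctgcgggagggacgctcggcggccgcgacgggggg
ATF3: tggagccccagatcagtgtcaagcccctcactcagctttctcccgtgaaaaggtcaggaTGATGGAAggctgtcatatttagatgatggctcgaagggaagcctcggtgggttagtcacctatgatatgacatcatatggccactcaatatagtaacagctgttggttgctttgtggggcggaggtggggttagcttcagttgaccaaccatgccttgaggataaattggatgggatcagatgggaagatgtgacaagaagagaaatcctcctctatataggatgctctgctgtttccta
DDIT3: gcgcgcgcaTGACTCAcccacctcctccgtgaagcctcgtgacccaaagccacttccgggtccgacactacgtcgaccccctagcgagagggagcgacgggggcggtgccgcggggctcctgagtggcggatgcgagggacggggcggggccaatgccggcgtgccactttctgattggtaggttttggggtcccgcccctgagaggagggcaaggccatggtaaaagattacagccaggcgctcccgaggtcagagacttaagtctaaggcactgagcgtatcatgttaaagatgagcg

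ATF4 (ENSG00000128272, GRCh37 chr22:39915700-39918688, plus strand) is the activator through which the eIF2α branch acts on transcription. Its level was 234, 246, 219 and 233 CPM in DMSO and 228, 233, 252 and 209.6 CPM in ISRIB. With nelfinavir it was 964, 753, 889 and 859 CPM, and with bortezomib 556, 599.6, 558 and 697 CPM. With bortezomib and nelfinavir together it was 873, 921, 1410.4 and 1105 CPM, and with bortezomib and ISRIB 529.9, 565, 646 and 449 CPM. Every library with bortezomib or nelfinavir lay above every DMSO and ISRIB library, nelfinavir lay above bortezomib without overlap, and replicate 3 of the combination with nelfinavir was the highest of all. Bortezomib raised ATF4 by 1.37 (log2 fold change, SE 0.12, edgeR adjusted p 8.79e-12) and nelfinavir raised it by 1.89 (log2 fold change, SE 0.12, edgeR adjusted p 2.16e-14). With library totals alone the bortezomib value was 0.87 (over 10 alternatives 0.87 to 1.38, adjusted p 5.84e-40 to 1.54e-07). Nelfinavir added to bortezomib raised it further, at 0.84 (log2 fold change, SE 0.12, edgeR adjusted p 1.15e-06). With ISRIB added to bortezomib the libraries overlapped, at -0.14 (log2 fold change, SE 0.12, edgeR adjusted p 0.478). The last 500 bases of the transcript match the pseudogenes ATF4P3 over 500 bases at 98.2% identity and ATF4P4 over 495 bases at 97.4%, so reads of these copies cannot be told apart from ATF4 reads where the letters are the same.

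ATF5 (ENSG00000169136, GRCh37 chr19:50431959-50437192, plus strand), a relative of ATF4 that is likewise under translational control, showed no call in any of the 10 comparisons. Its levels ranged from 14.8 to 29.7 CPM in ISRIB, 15.3 to 22.2 CPM in DMSO, 15.3 to 19.1 CPM in nelfinavir and 16.3 to 20.5 CPM in bortezomib. With bortezomib and nelfinavir they ranged from 20.9 to 29.97 CPM, above the bortezomib libraries without overlap, and with bortezomib and ISRIB from 15.1 to 33.5 CPM. For nelfinavir added to bortezomib ATF5 gave 0.43 (log2 fold change, SE 0.21, edgeR adjusted p 0.122), and for bortezomib added to nelfinavir 0.46 (log2 fold change, SE 0.20, edgeR adjusted p 0.0511). The exons of ATF5 share 565 bases with those of NUP62 on the opposite strand, and whether the counting used strand is not given in the sources used here. Without strand, reads of the 2 genes cannot be told apart in those bases.

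ATF3 (ENSG00000162772, GRCh37 chr1:212738676-212794119, plus strand), an early stress-induced factor that often acts as a repressor, was nearly silent in untreated cells. It was at 2.09, 1.56, 1.12 and 1.84 CPM in DMSO, from 18, 12, 8 and 15 counts, and at 1.64, 1.44, 0.706 and 1.11 CPM in ISRIB. Nelfinavir brought it to 14.2, 9.81, 10.6 and 12.7 CPM and bortezomib to 76.4, 70.4, 62.1 and 74.8 CPM. With bortezomib and nelfinavir it was 109, 116, 106 and 104 CPM, and with bortezomib and ISRIB 40.7, 36.2, 37.3 and 32.1 CPM. Apart from DMSO and ISRIB, which overlapped, the groups were separated without overlap, in the order bortezomib with nelfinavir, bortezomib, bortezomib with ISRIB, nelfinavir, DMSO and ISRIB. Bortezomib raised ATF3 by 5.39 (log2 fold change, SE 0.17, edgeR adjusted p 7.43e-23), which ranked 10th of all genes by p in that comparison, and nelfinavir raised it by 2.81 (log2 fold change, SE 0.19, edgeR adjusted p 1.36e-13). On top of bortezomib, nelfinavir raised ATF3, at 0.61 (log2 fold change, SE 0.12, edgeR adjusted p 0.000188). ISRIB added to bortezomib lowered it, at -0.95 (log2 fold change, SE 0.13, edgeR adjusted p 1.85e-06), and all 4 libraries with ISRIB lay below all 4 with bortezomib alone.

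JDP2 (ENSG00000140044, GRCh37 chr14:75894419-75940814, plus strand), a Jun partner that represses AP-1 sites, was at or near 0 in DMSO and ISRIB. It had 1, 2, 1 and 0 counts in DMSO and 2, 0, 1 and 4 counts in ISRIB. It had 49, 38, 33 and 30 counts in nelfinavir and 7, 7, 8 and 8 counts in bortezomib. In bortezomib with nelfinavir it had 27, 24, 33 and 22 counts, and in bortezomib with ISRIB 9, 11, 19 and 11 counts. The nelfinavir groups were high, the other bortezomib groups between, and every treated library with nelfinavir or bortezomib lay above the DMSO and ISRIB libraries. In means, JDP2 was at 4.73 ± 0.854 CPM (SD, n = 4) in nelfinavir, 1.57 ± 0.173 CPM in bortezomib, 5.44 ± 0.98 CPM with both and 2.76 ± 0.88 CPM in bortezomib with ISRIB. It was called higher with bortezomib (edgeR adjusted p 1.73e-05) and with nelfinavir (edgeR adjusted p 5.55e-09), but with 4 counts in all in DMSO the fitted fold changes, 3.43 and 5.02 on the log2 scale, depend on the prior count of the fit. Nelfinavir added to bortezomib raised it, at 1.78 (log2 fold change, edgeR adjusted p 0.000869). With ISRIB added to bortezomib its log2 fold change was 0.81 (edgeR adjusted p 0.22), without overlap between the groups and without a call.

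DDIT3 (ENSG00000175197, GRCh37 chr12:57910371-57915520, minus strand) encodes CHOP, a C/EBP relative that dimerises with other C/EBP proteins and is known for its part in cell death under lasting stress. Its level was 13.9, 14.8, 12.3 and 12.4 CPM in DMSO and 15.4, 14.3, 12.7 and 10.2 CPM in ISRIB. It was 84.1, 65.95, 79.3 and 83.995 CPM in nelfinavir and 73.4, 72.9, 74.1 and 69.6 CPM in bortezomib. With both it was 132, 119, 167 and 156 CPM, and with bortezomib and ISRIB 70.1, 58.6, 78.3 and 66.4 CPM. The combination with nelfinavir lay above all other groups without overlap, nelfinavir, bortezomib and bortezomib with ISRIB overlapped, and all of them lay above DMSO and ISRIB. Bortezomib raised DDIT3 by 2.44 (log2 fold change, SE 0.13, edgeR adjusted p 6.47e-17) and nelfinavir raised it by 2.55 (log2 fold change, SE 0.13, edgeR adjusted p 8.72e-17), and bortezomib against nelfinavir gave -0.11 (log2 fold change, SE 0.12, edgeR adjusted p 0.443). Nelfinavir added to bortezomib raised it, at 0.99 (log2 fold change, SE 0.12, edgeR adjusted p 6.56e-08), while ISRIB added to bortezomib gave -0.08 (log2 fold change, SE 0.12, edgeR adjusted p 0.705). The exons of DDIT3 share 355 bases with those of MARS, also called MARS1, on the opposite strand, of which 260 lie in the last 500 bases of a DDIT3 transcript, so without strand in the counting reads of the 2 genes cannot be told apart there.

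CEBPB (ENSG00000172216, GRCh37 chr20:48807367-48809205, plus strand) is a main C/EBP factor of liver inflammation and stress. Its level was 19.6, 20.6, 23.8 and 20.8 CPM in DMSO and 20.8, 16.8, 23.9 and 16.4 CPM in ISRIB. It was 128, 123, 95.3 and 139 CPM in nelfinavir and 124, 101, 112 and 124 CPM in bortezomib. With both it was 172, 187, 99.4 and 93.3 CPM, and with bortezomib and ISRIB 82.6, 85.7, 50.1 and 88.1 CPM. The combination with nelfinavir was split into 2 high and 2 low libraries, replicate 3 with ISRIB was low, and every library with bortezomib or nelfinavir lay above DMSO. Bortezomib raised CEBPB by 2.45 (log2 fold change, SE 0.19, edgeR adjusted p 6.88e-13) and nelfinavir raised it by 2.52 (log2 fold change, SE 0.19, edgeR adjusted p 1.30e-12). Adding nelfinavir to bortezomib gave 0.25 (log2 fold change, SE 0.17, edgeR adjusted p 0.276), with no call. This value depended on which libraries of the combination were used (over 12 alternatives -0.21 to 0.65, adjusted p 0.00206 to 0.378). Without replicate 4 it was called, at 0.43 (edgeR adjusted p 0.0479), with single libraries left out 0.11 to 0.43, adjusted p 0.0479 to 0.646. With pairs of libraries left out, chosen after seeing the data, it was called without replicates 3 and 4, at 0.65 (edgeR adjusted p 0.00206), and turned without replicates 1 and 2, at -0.21 (edgeR adjusted p 0.338). Replicates 3 and 4 were the 2 low libraries of the combination, so leaving them out had to raise the value. The call gained without them is no separate support. ISRIB added to bortezomib lowered CEBPB, at -0.59 (log2 fold change, SE 0.18, edgeR adjusted p 0.0226), but without replicate 3 of bortezomib and ISRIB, the low one, the value was -0.44 (edgeR adjusted p 0.0755, with single libraries left out -0.67 to -0.44, adjusted p 0.0164 to 0.0755).

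CEBPG (ENSG00000153879, GRCh37 chr19:33864591-33873592, plus strand) lacks a classical activation domain and is a dimer partner of ATF4. Its level was 31.1, 28.2, 33.6 and 30.6 CPM in DMSO and 28.5, 26.5, 21.7 and 24.3 CPM in ISRIB. It was 72.7, 83.9, 55.2 and 81.3 CPM in nelfinavir and 58.2, 39.8, 58.3 and 66.3 CPM in bortezomib. With both it was 85.6, 96.1, 49.1 and 56.3 CPM, and with bortezomib and ISRIB 56.99, 47.7, 22.3 and 53.3 CPM. Nelfinavir and bortezomib each lay above DMSO without overlap, and the low libraries of both combinations were those in which CEBPB was low. Bortezomib raised CEBPG by 0.85 (log2 fold change, SE 0.20, edgeR adjusted p 0.000722) and nelfinavir raised it by 1.25 (log2 fold change, SE 0.20, edgeR adjusted p 1.59e-05). With library totals alone the bortezomib value was 0.35 (edgeR adjusted p 0.13), without a call (over 10 alternatives 0.35 to 0.86, adjusted p 4.47e-09 to 0.13). Neither addition to bortezomib gave a call, with 0.36 (log2 fold change, SE 0.20, edgeR adjusted p 0.174) for nelfinavir and -0.30 (log2 fold change, SE 0.21, edgeR adjusted p 0.364) for ISRIB. For nelfinavir the value was 0.53 (edgeR adjusted p 0.048) without replicate 3 of the combination (with single libraries left out 0.24 to 0.53, adjusted p 0.048 to 0.398). With pairs left out, chosen after seeing the data, it was 0.72 (edgeR adjusted p 0.00941) without replicates 3 and 4 and -0.03 (edgeR adjusted p 0.949) without replicates 1 and 2 (over 12 alternatives -0.03 to 0.72, adjusted p 0.00941 to 0.949). Replicates 3 and 4 were the low libraries of the combination, so leaving them out had to raise the value. The call gained without them is no separate support. With the within-group component as a covariate, added after seeing the data, both additions to bortezomib were called, at 0.32 (edgeR adjusted p 0.0161) and -0.36 (edgeR adjusted p 0.0173, for ISRIB over 10 alternatives -0.37 to -0.31, adjusted p 0.0173 to 0.425). That component is made of deviations from group means, so as a covariate it takes out spread between replicates, which CEBPG followed at a correlation of -0.92. Calls gained with this covariate are therefore no separate support. Without replicate 3 of bortezomib and ISRIB the ISRIB value was -0.08 (edgeR adjusted p 0.816), with single libraries left out -0.44 to -0.08, adjusted p 0.186 to 0.816.

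CEBPD (ENSG00000221869, chromosome 8, minus strand), a C/EBP factor of the acute phase response, was the gene of the 9 that moved the other way with bortezomib. Its level was 25.4, 20.8, 27.4 and 28.9 CPM in DMSO, 24.8, 26.6, 19.1 and 27.6 CPM in ISRIB and 22.8, 29.4, 21.02 and 27.003 CPM in nelfinavir. It was 4.92, 10.3, 12.04 and 15.8 CPM in bortezomib. With both compounds it was 13.5, 14.8, 13.8 and 7.32 CPM, and with bortezomib and ISRIB 18.7, 10.9, 7.16 and 9.38 CPM. Every library with bortezomib lay below every library without it, and the 3 groups on either side overlapped among themselves. Bortezomib lowered CEBPD, at -1.25 (log2 fold change, SE 0.24, edgeR adjusted p 5.71e-05), in the presence of nelfinavir at -1.03 (log2 fold change, SE 0.24, edgeR adjusted p 0.00049) and in the presence of ISRIB at -1.09 (log2 fold change, SE 0.25, edgeR adjusted p 0.000325). Nelfinavir against DMSO gave -0.03 (log2 fold change, SE 0.22, edgeR adjusted p 0.949).

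NUPR1 (ENSG00000176046, GRCh37 chr16:28544029-28550329, minus strand) encodes a small stress-induced chromatin protein that is a known ATF4 target. Its level was 7.55, 9.24, 7.84 and 7.35 CPM in DMSO and 7.19, 6.43, 6.78 and 5.05 CPM in ISRIB. It was 82.7, 70.6, 81.4 and 79.6 CPM in nelfinavir and 15.4, 16.7, 11.6 and 20.1 CPM in bortezomib. With both it was 20.1, 19.98, 32.4 and 25.9 CPM, and with bortezomib and ISRIB 8.68, 11.3, 8.84 and 6.42 CPM. Nelfinavir alone stood far above every other group, the combination lay nearer to bortezomib and overlapped it, and bortezomib with ISRIB overlapped DMSO. Nelfinavir raised NUPR1 by 3.29 (log2 fold change, SE 0.17, edgeR adjusted p 1.26e-16) and bortezomib raised it by 1.00 (log2 fold change, SE 0.18, edgeR adjusted p 2.12e-05), the latter 0.50 with library totals alone (over 10 alternatives 0.50 to 1.01, adjusted p 9.59e-07 to 0.0187). Bortezomib added to nelfinavir lowered NUPR1, at -1.67 (log2 fold change, SE 0.16, edgeR adjusted p 6.60e-11). Nelfinavir added to bortezomib raised it, at 0.63 (log2 fold change, SE 0.17, edgeR adjusted p 0.00553), and ISRIB added to bortezomib lowered it, at -0.85 (log2 fold change, SE 0.19, edgeR adjusted p 0.00261). With pairs of libraries of the combination left out, chosen after seeing the data, the nelfinavir value was 0.34 without replicates 3 and 4 (edgeR adjusted p 0.22) and 0.92 without replicates 1 and 2 (edgeR adjusted p 0.000227, over 12 alternatives 0.34 to 0.92, adjusted p 0.000227 to 0.22). The exons of NUPR1 share 909 bases with those of the long noncoding RNA ENSG00000289754 on the same strand, and 284 of its last 500 bases match it at 100% identity, where reads of the 2 cannot be told apart.

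**Figure D2:**
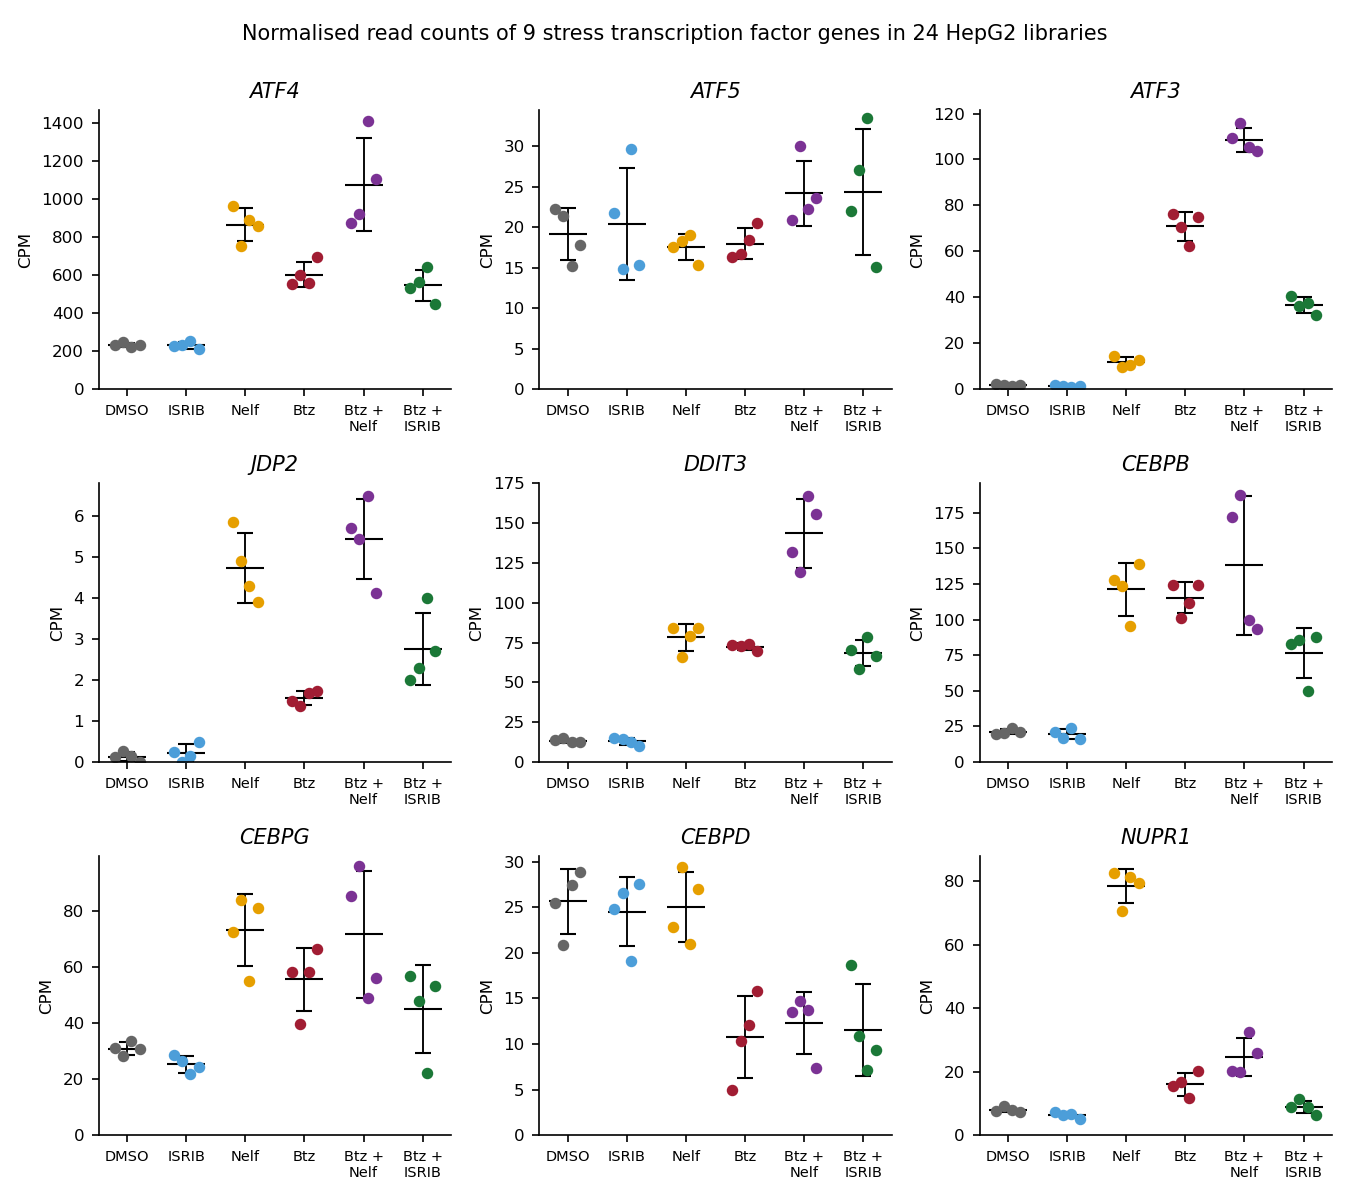
Normalised read count in CPM (linear axis, from 0) of each gene in every library by treatment, with points for replicates 1 to 4 from left to right and bars for the mean and SD (n = 4). ATF3 is highest in bortezomib with nelfinavir (104 to 116 CPM), NUPR1 in nelfinavir alone (70.6 to 82.7 CPM), and CEBPD is lower in every bortezomib library.

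Bortezomib against DMSO asks what proteasome inhibition alone does to these genes. Of the 9, 7 were called higher (ATF4, ATF3, JDP2, DDIT3, CEBPB, CEBPG and NUPR1), beside 27.6% of all genes tested, and 1, CEBPD, was called lower, beside 25.8%. JDP2 was tested only because it is high in treated groups and its call against DMSO is no support, and among the 8 genes that reached the count minimum in all groups 6 were higher. The median log2 fold change of these 8 was 1.18, that of all genes 0.00. Of the target genes of ATF4 and CHOP, 39 of 41 listed were tested, of which 33 were higher and 2 lower (SLC7A5 and ERO1L), with a median of 1.79. VLDLR was, like JDP2, under the count minimum in DMSO and ISRIB and tested through groups in which it is high. ALDH1L2 was under it in those groups and also in bortezomib and in bortezomib with ISRIB. It was tested through the nelfinavir groups alone. Of the other 37 targets 31 were higher, with a median of 1.64. Among them PPP1R15A, which is on the next list too, the stress-induced subunit of the eIF2α phosphatase, rose by 5.05 (SE 0.14, edgeR adjusted p 1.65e-24), GDF15, a secreted stress hormone, by 4.64 (SE 0.15, edgeR adjusted p 5.11e-23) and ASNS, asparagine synthetase, by 3.24 (SE 0.12, edgeR adjusted p 8.19e-21). Of 6 eIF2α kinases and phosphatase subunits, 4 were higher and 1, the kinase EIF2AK4, lower, at -0.69 (SE 0.12, edgeR adjusted p 2.02e-05). Of 18 other ATF, CREB and C/EBP genes tested (20 of 21 listed had counts), 8 were higher and 4 lower, with a median of 0.38, and 7 and 4 of the 16 that reached the count minimum in all groups (all but CREB5 and BATF2). CEBPA, the C/EBP factor of the differentiated hepatocyte, was lower at -1.19 (SE 0.11, edgeR adjusted p 2.60e-11), and ATF6, a sensor of the endoplasmic reticulum, higher at 1.599 (SE 0.12, edgeR adjusted p 4.37e-13). Calls over all genes were 3498 higher and 3275 lower, 51.6% of them higher, and with library totals alone 1490 and 6266, 19.2% higher, when ATF5 was also called lower, at -0.60 (edgeR adjusted p 0.0128, over 10 alternatives -0.60 to -0.08, adjusted p 0.0128 to 0.752).

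Nelfinavir against DMSO shares its 4 control libraries with the bortezomib comparison. The same 7 gene names were called higher, 6 of 8 without JDP2, beside 10.4% of all genes tested, and none lower, beside 8.84%. The median of the 8 was 2.21, that of all genes 0.01. Of the 39 targets, 37 were higher and 1, ERO1L, lower, with a median of 1.61 (35 and 1 of 37, with a median of 1.53, without VLDLR and ALDH1L2), among them CTH, which makes cysteine, by 3.76 (SE 0.25, edgeR adjusted p 1.35e-13). VLDLR, a lipoprotein receptor, was at 0.195 CPM in DMSO and 5.79 CPM in nelfinavir, too low in DMSO for a fold change. Of the 18 other family genes tested, CREB3 at 0.61 (SE 0.13, edgeR adjusted p 0.000797) and NFIL3 at 1.02 (SE 0.13, edgeR adjusted p 3.94e-07) were higher and CREB3L2 lower, with a median of 0.20, and BATF was at 0.82 (SE 0.37, edgeR adjusted p 0.124) with no call. Of the kinases and phosphatase subunits, EIF2AK1 and PPP1R15A were higher and EIF2AK2 lower, the last at -0.37 (SE 0.10, edgeR adjusted p 0.00917).

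ISRIB against DMSO asks whether ISRIB acts on cells that were not stressed by a compound. Neither direction held any of the 9 genes, beside 0% of all genes higher and 0% lower. By edgeR 0 genes passed adjustment, and before it 703 lay under 0.05. DESeq2 called 1 gene higher and 20 lower, none of them among the 9. For ATF4 the log2 fold change was -0.02 (log2 fold change, SE 0.12, edgeR adjusted p 1.00), and for DDIT3 -0.02 (log2 fold change, SE 0.14, edgeR adjusted p 1.00). NUPR1 was lower in each ISRIB library than in each DMSO library, from 5.05 to 7.19 against 7.35 to 9.24 CPM, with -0.33 (log2 fold change, SE 0.19, edgeR adjusted p 0.978) and no call. None of the 39 targets, the 18 family genes or the 6 kinases and phosphatase subunits was called.

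**Figure D3:**
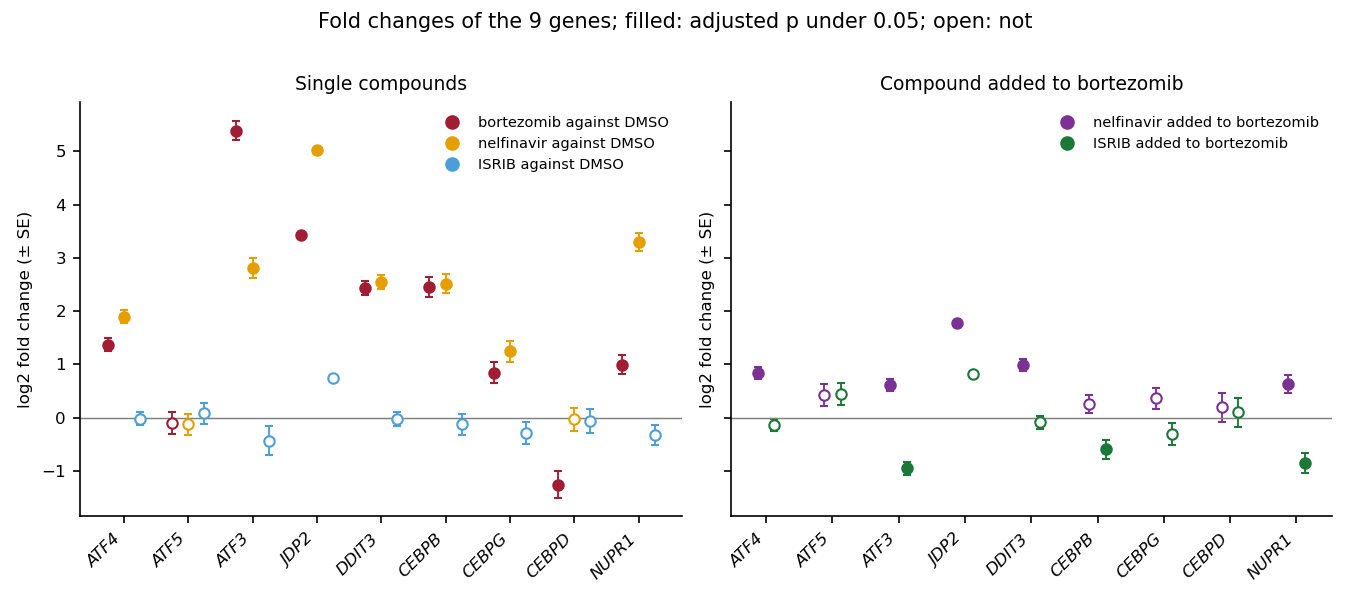
Log2 fold change (points) with its SE (bars, not drawn for JDP2, whose DMSO counts sum to 4) of the 9 genes for the single compounds against DMSO and for nelfinavir or ISRIB added to bortezomib. Filled points passed adjusted p under 0.05, and ISRIB against DMSO has open points for all 9 genes.

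Nelfinavir added to bortezomib asks how a compound that raises phosphorylated eIF2α alters the bortezomib response. Of the 9 genes, 5 were called higher (ATF4, ATF3, JDP2, DDIT3 and NUPR1), 4 of 8 without JDP2, beside 15.6% of all genes tested, and none lower, beside 13.4%. The median of the 8 was 0.52, that of all genes -0.02. The target list had 25 of 39 genes higher and 3 lower (DDIT4, PCK2 and INHBE), with a median of 0.45. ALDH1L2 was under the count minimum in bortezomib and tested through the nelfinavir groups. Without VLDLR and ALDH1L2 the counts were 24 and 3 of 37, with a median of 0.44. VLDLR rose by 1.28 (SE 0.36, edgeR adjusted p 0.00784) and BCL2L11, which encodes the death protein BIM, by 1.48 (SE 0.17, edgeR adjusted p 4.28e-08), while INHBE, a secreted activin subunit, fell, at -0.48 (SE 0.09, edgeR adjusted p 0.000184). The kinase gene EIF2AK3, which encodes PERK, rose by 1.33 (SE 0.14, edgeR adjusted p 1.26e-08), with PPP1R15A and PPP1R15B also higher and EIF2AK1 lower of 6. CREB3L2 and CREB3L3 were higher and CREM lower of the 18 family genes. With 2 of the 4 combination libraries apart from the other 2, calls over all genes went from 1975 higher and 1694 lower to 1547 and 1098 without replicates 3 and 4, and to 2197 and 1635 without replicates 1 and 2.

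ISRIB added to bortezomib asks which part of the bortezomib response needs the cell to sense phosphorylated eIF2α, and it shares the bortezomib libraries with the comparison above. None of the 9 genes was called higher, beside 6.91% of all genes tested, and 3 were called lower (ATF3, CEBPB and NUPR1), beside 5.34%. The median of the 8 genes without JDP2 was -0.22, that of all genes 0.01. Of the 39 targets, 20 were lower and 2 higher (NDRG1 and ERO1L), with a median of -0.36. PPP1R15A was lower at -1.10 (SE 0.11, edgeR adjusted p 1.05e-08) and SESN2, a brake on mTORC1, at -1.10 (SE 0.13, edgeR adjusted p 2.44e-07). ASNS was not called, at -0.19 (SE 0.11, edgeR adjusted p 0.252). EIF2AK3 was higher, at 1.02 (SE 0.14, edgeR adjusted p 5.30e-06), and of the family genes CREB3L2 was higher and ATF6 and NFIL3 lower. Calls over all genes were 876 higher and 677 lower, 56.4% of them higher, and with library totals alone 650 and 955, 40.5% higher. Without replicate 4 of bortezomib and ISRIB, ATF5 was called higher, at 0.62 (edgeR adjusted p 0.0474, with single libraries left out 0.25 to 0.62, adjusted p 0.0474 to 0.48), and without replicate 3 CEBPB lost its call as given above.

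**Figure D4:**
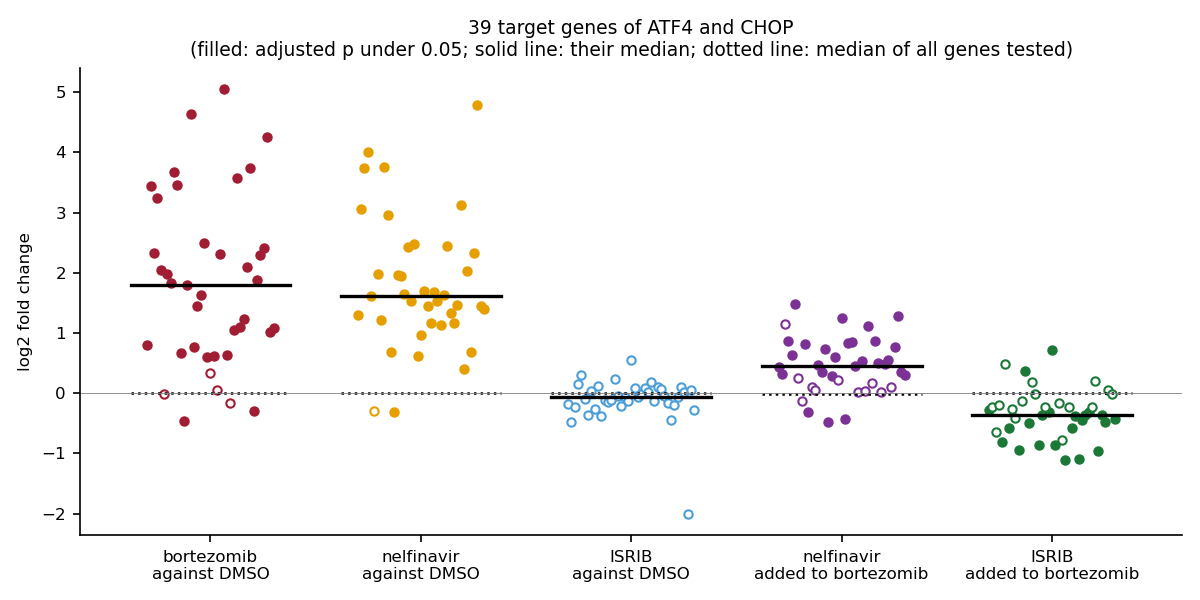
Log2 fold change of each of 39 target genes of ATF4 and CHOP (points, filled where adjusted p was under 0.05) in 5 comparisons, with the list's median (solid line) and that of all genes tested (dotted line). The list's median is 1.79 with bortezomib, 1.61 with nelfinavir and -0.36 when ISRIB is added to bortezomib. VLDLR and ALDH1L2 are under the count minimum in DMSO and ISRIB, and ALDH1L2 also in bortezomib and in bortezomib with ISRIB.

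On the log2 scale, the nelfinavir effect was smaller in the presence of bortezomib for most of the 9 genes, as tested by the difference of the effects with and without bortezomib. This interaction was called lower for 7 genes (ATF4, ATF3, JDP2, DDIT3, CEBPB, CEBPG and NUPR1), 6 of 8 without JDP2, beside 10.0% of all genes tested, and higher for none, beside 9.74%. The median of the 8 was -1.31, that of all genes -0.02. For NUPR1 the nelfinavir effect went from 3.29 without to 0.63 with bortezomib, an interaction of -2.67 (log2 fold change, SE 0.24, edgeR adjusted p 3.79e-10). For CEBPB it went from 2.52 to 0.25, an interaction of -2.26 (log2 fold change, SE 0.25, edgeR adjusted p 3.21e-08). For ATF4 it went from 1.89 to 0.84, an interaction of -1.06 (log2 fold change, SE 0.16, edgeR adjusted p 1.15e-05). For CEBPG the interaction was -0.88 (log2 fold change, SE 0.28, edgeR adjusted p 0.0245), a call that was lost when any 1 of 5 libraries was left out (with single libraries left out -0.998 to -0.71, adjusted p 0.00838 to 0.0676). Its values were -0.81 without nelfinavir replicate 2 and -0.83 without nelfinavir replicate 4 (edgeR adjusted p 0.0518 and 0.0508). It was -0.74 without bortezomib replicate 4, and -0.71 and -0.74 without replicates 3 and 4 of the combination (edgeR adjusted p 0.0676, 0.0645 and 0.0579). For ATF5 and CEBPD it was 0.55 and 0.23 with no call. Of the 39 targets 33 were lower and 1, BCL2L11, higher, with a median of -1.24 (31 and 1 of 37, with a median of -1.22, without VLDLR and ALDH1L2). Of the kinases and phosphatase subunits EIF2AK2 and EIF2AK3 were higher and EIF2AK1 and PPP1R15A lower, and of the 18 family genes CREB3L2 and CREB3L3 were higher and ATF6, CREB3 and NFIL3 lower. The interaction is on the log2 scale, on which effects that add up as counts also come out smaller in the combination.

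**Figure D5:**
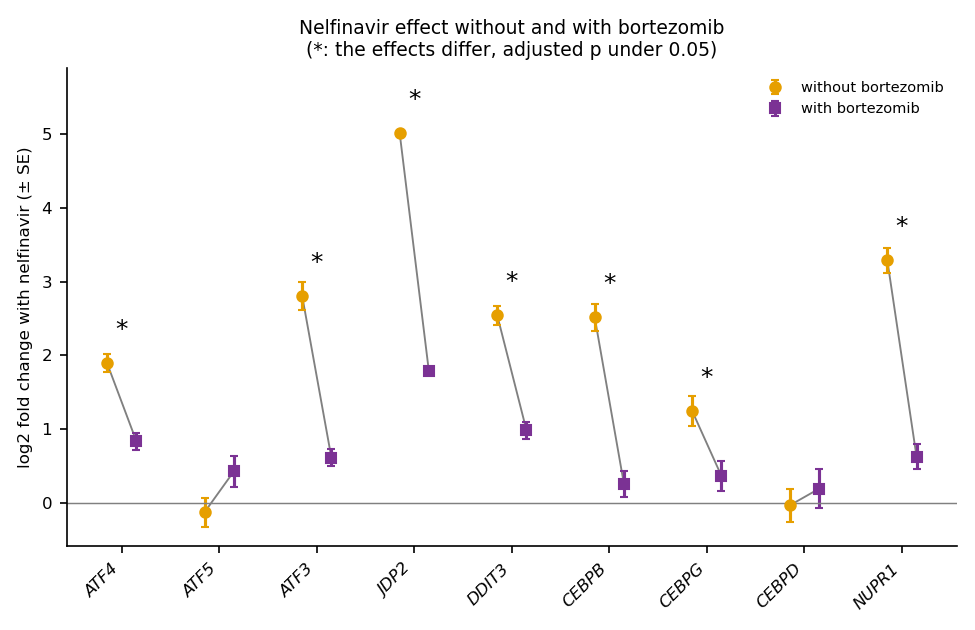
Log2 fold change with nelfinavir (points, with SE as bars except for JDP2) without bortezomib (circles) and with bortezomib (squares) for each gene, and a star where the 2 effects differed at adjusted p under 0.05. The effect of NUPR1 goes from 3.29 to 0.63, and ATF5 and CEBPD carry no star.

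The ISRIB by bortezomib interaction was called for none of the 9 genes by edgeR, beside 2.93% of all genes called higher and 1.89% lower. The nearest were NUPR1, with -0.52 (log2 fold change, SE 0.27, edgeR adjusted p 0.311), and CEBPB, with -0.47 (log2 fold change, SE 0.26, edgeR adjusted p 0.354), so the lower values of NUPR1, CEBPB and ATF3 with ISRIB in bortezomib were not shown to differ from the ISRIB effect in DMSO. For ATF3 it was -0.52 (log2 fold change, SE 0.31, edgeR adjusted p 0.402). With the within-group component as a covariate, added after seeing the data, CEBPB was called lower, at -0.50 (edgeR adjusted p 0.0322, over 10 alternatives -0.52 to -0.47, adjusted p 0.0322 to 0.344). As said for CEBPG, a call gained with this covariate is no separate support. The target list had 12 genes lower and 1, ERO1L, higher, among them PPP1R15A at -1.19 (SE 0.20, edgeR adjusted p 0.000185) and SESN2 at -1.21 (SE 0.19, edgeR adjusted p 0.000126). EIF2AK3 was higher, at 1.30 (SE 0.21, edgeR adjusted p 0.000149). Of the calls over all genes 60.8% were higher, and 49.4% with library totals alone.

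Bortezomib added to nelfinavir shows what the proteasome inhibitor changes in cells that already have nelfinavir. Of the 9 genes 3 were called higher (ATF4, ATF3 and DDIT3), beside 28.7% of all genes tested, and 2 lower (CEBPD and NUPR1), beside 28.4%. ATF3 rose by 3.19 (log2 fold change, SE 0.13, edgeR adjusted p 1.48e-19) and DDIT3 by 0.88 (log2 fold change, SE 0.11, edgeR adjusted p 6.53e-08), the latter 0.37 with library totals alone (over 12 alternatives 0.37 to 1.05, adjusted p 2.86e-12 to 0.00882). ATF4 was at 0.31 (log2 fold change, SE 0.11, edgeR adjusted p 0.0187), but with library totals alone its value was -0.19 (edgeR adjusted p 0.153, over 12 alternatives -0.19 to 0.54, adjusted p 0.000189 to 0.937). Its call was also lost without nelfinavir replicate 2, at 0.25 (edgeR adjusted p 0.0825), and without replicate 3 or 4 of the combination, at 0.14 and 0.30 (edgeR adjusted p 0.271 and 0.05002), with single libraries left out 0.14 to 0.41, adjusted p 0.0042 to 0.271. With pairs of libraries of the combination left out, chosen after seeing the data, ATF4 was at 0.01 without replicates 3 and 4 (edgeR adjusted p 0.937) and at 0.54 without replicates 1 and 2 (edgeR adjusted p 0.000189). ATF5 was called without replicate 1 of the combination, at 0.52 (edgeR adjusted p 0.0388, with single libraries left out 0.35 to 0.52, adjusted p 0.0388 to 0.171), while with library totals alone it was at -0.05. JDP2, CEBPB and CEBPG overlapped between the groups, at 0.20, 0.18 and -0.03, and with library totals alone at -0.31, -0.33 and, called lower, -0.55 (edgeR adjusted p 0.0128, for CEBPG over 12 alternatives -0.55 to 0.27, adjusted p 0.0128 to 0.913). The targets had 20 genes higher and 6 lower of 39, with a median of 0.29 beside -0.05 over all genes. Of the calls over all genes 50.3% were higher, and with library totals alone 19.6% (1584 higher and 6518 lower).

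Bortezomib added to ISRIB gave calls for 8 of the 9 genes, 7 higher (all but ATF5 and CEBPD, and 6 without JDP2, low in ISRIB), beside 29.1% of all genes tested, and CEBPD lower, beside 25.6%. ATF3 rose by 4.87 (log2 fold change, SE 0.19, edgeR adjusted p 1.26e-20), DDIT3 by 2.38 (log2 fold change, SE 0.13, edgeR adjusted p 1.49e-16) and ATF4 by 1.25 (log2 fold change, SE 0.12, edgeR adjusted p 7.41e-11), the last 0.71 with library totals alone (over 10 alternatives 0.71 to 1.26, adjusted p 9.80e-33 to 4.89e-06). NUPR1 was at 0.48 (log2 fold change, SE 0.20, edgeR adjusted p 0.0429), but with library totals alone it was at -0.06 (edgeR adjusted p 0.818, over 10 alternatives -0.06 to 0.49, adjusted p 0.028 to 0.818), and the call was lost in 8 of 10 alternatives. It was also lost without any 1 of ISRIB replicates 2, 3 and 4 (0.48, 0.51 and 0.38) or bortezomib and ISRIB replicates 1, 2 and 3 (0.43, 0.28 and 0.42), with an edgeR adjusted p of up to 0.301. CEBPG was at 0.83 (log2 fold change, SE 0.21, edgeR adjusted p 0.00114), and with library totals alone at 0.28 (edgeR adjusted p 0.233, over 10 alternatives 0.28 to 0.84, adjusted p 8.32e-08 to 0.233). ATF5 was at 0.27 with no call, at -0.26 with library totals alone and, without ISRIB replicate 3, called higher at 0.50 (edgeR adjusted p 0.0347, with single libraries left out 0.02 to 0.50, adjusted p 0.0347 to 0.933), and without ISRIB replicate 4, which held 4 of the 7 JDP2 counts of its group, the JDP2 value went from 3.49 to 4.19. The targets had 34 genes higher and 2 lower, with a median of 0.98 (32 and 2 of 37, with a median of 0.96, without VLDLR and ALDH1L2). Of the calls over all genes 53.3% were higher, and with library totals alone 19.3% (1532 higher and 6397 lower).

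Bortezomib against nelfinavir sets the single compounds side by side. One gene, ATF3, was called higher with bortezomib, beside 25.2% of all genes tested, and 4 lower (ATF4, JDP2, CEBPD and NUPR1), beside 23.6%. ATF3 was at 2.58 (log2 fold change, SE 0.13, edgeR adjusted p 6.07e-17), NUPR1 at -2.30 (log2 fold change, SE 0.16, edgeR adjusted p 1.48e-13) and ATF4 at -0.52 (log2 fold change, SE 0.11, edgeR adjusted p 0.000294), the last -0.997 with library totals alone (over 10 alternatives -0.997 to -0.51, adjusted p 5.73e-09 to 0.000389). DDIT3, CEBPB, CEBPG and ATF5 gave no call, at -0.11, -0.07, -0.40 and 0.03, the last of which was -0.03 with upper-quartile factors and -0.44 with library totals alone. With library totals alone, under which 16.4% of the calls over all genes were higher against 51.6%, DDIT3, CEBPB and CEBPG were called lower too, at -0.58, -0.55 and -0.87, which makes 7 lower. CEBPG was also called without nelfinavir replicate 3, at -0.52 (edgeR adjusted p 0.0398), and without bortezomib replicate 4, at -0.54 (edgeR adjusted p 0.0349, with single libraries left out -0.54 to -0.31, adjusted p 0.0349 to 0.213). The targets had 11 genes higher and 16 lower of 39, with a median of -0.10. ALDH1L2 was under the count minimum in bortezomib and tested through the nelfinavir groups. Without VLDLR and ALDH1L2 the counts were 11 and 15 of 37, with a median of -0.015.

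The genes whose log2 CPM ran closest to each of the 9 over the 24 libraries, a likeness set mostly by differences between treatments, are named here without a test. For ATF4 they were ASNS, AARS and GARS (Pearson 0.97, 0.97 and 0.97), for DDIT3 TRIB3, S100P and MTHFD2 (0.99, 0.98 and 0.98) and for CEBPB GARS, MTHFD2 and CTH (0.97, 0.97 and 0.97). For JDP2 they were ASNS, TSC22D3 and WARS (0.96, 0.95 and 0.95), and for NUPR1 PHGDH, CHCHD10 and INHBE (0.94, 0.93 and 0.92). ATF3 ran closest to ANKRD11, CALCOCO2 and LONP1 (0.99, 0.99 and 0.98), CEBPG to SNHG7, VEGFA and ZFAND1 (0.93, 0.93 and 0.92) and CEBPD to THRA, RCOR2 and NFE2 (0.94, 0.90 and 0.90). ATF5 had no close partner, with ZC3H18, NUMA1 and PDE4A at 0.73, 0.72 and 0.71.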

How the data were processed

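RNA of HepG2 cells was sequenced with the QuantSeq 3′ FWD kit in 24 libraries, 4 for each of 6 treatments, as single reads of 80 bases. The authors deposited a table of counts for 18915 genes, made after trimming with cutadapt 2.8 and alignment with STAR to hg19 (GRCh37) in the nf-core workflow for RNA, with Ensembl annotation of protein coding, lincRNA and antisense genes. Within that workflow, the tool that counted, its strand option and the role of molecular identifiers were details not given in the sources used here. Both the 9 genes and all gene lists were chosen with earlier results of these data known.

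The counts were analysed in R 4.3.3 with edgeR 4.0.16. Genes were kept by filterByExpr with a minimum count of 5 and a minimum total of 25, which left 12685, and scaled with the trimmed mean of M-values. A quasi-likelihood model over all 24 libraries without pairing gave 8 contrasts between groups and 2 interactions, with p adjusted by the Benjamini-Hochberg method over all genes tested. The procedure was tested on simulated data with a common mean profile for all groups, apart from a set of changed genes. These data lacked the shift in mitochondrial share seen with bortezomib, so they do not test how the scaling handles it. Alternatives were other scaling factors, DESeq2 1.42.0, other filters, the compared groups alone, a replicate block, removal of 13 mitochondrial genes and leaving out each library, and, chosen after seeing the data, a within-group component as a covariate and leaving out replicates 1 and 2 or replicates 3 and 4 of bortezomib with nelfinavir. Depth of 5154533 to 6943164 counts leaves a gene at 1 CPM with few counts, so JDP2, and ATF3 without treatment, are imprecise. Transcript copies were compared with blastn 2.17.0.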

Additional observations from a re-analysis of the deposited data

Results flagged for a closer look

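In 2 of 66 groups of 4 libraries, 1 library lay so far from the other 3 that the gap passed the 95% limit for 4 values, and chance alone gives about 1 in 20 groups. CEBPB was at 50.1 CPM in replicate 3 of bortezomib with ISRIB, with the other 3 libraries from 82.6 to 88.1 CPM. CEBPD was at 7.32 CPM in replicate 4 of bortezomib with nelfinavir, with the other 3 from 13.5 to 14.8 CPM.

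The effect of nelfinavir differed between cells with and without bortezomib by the edgeR interaction test for 7 of the 9 genes. Beside these, 10.0% of all genes tested were called lower in it and 9.74% higher. The 18 interactions tested over the 9 genes included those of ISRIB by bortezomib, of which none was called. The log2 differences for nelfinavir were -1.06 for ATF4, -2.20 for ATF3, -3.24 for JDP2, -1.56 for DDIT3, -2.26 for CEBPB, -0.88 for CEBPG and -2.67 for NUPR1. In mean CPM the rise of ATF3 and DDIT3 with nelfinavir was not smaller with bortezomib. The JDP2 value rests on 4 counts in DMSO, and JDP2 was tested through the groups in which it is high. The CEBPG call is lost when any 1 of 5 libraries is left out, nelfinavir replicate 2 or 4 (-0.81 or -0.83), bortezomib replicate 4 (-0.74) or replicate 3 or 4 of the combination (-0.71 or -0.74), at an edgeR adjusted p of 0.0508 to 0.0676.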

How the results depend on the processing

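Of the fold changes of the 9 genes under alternatives other than leaving out 1 library, 902 kept direction and call, 21 gained a call, 15 lost it, and 15 changed direction, of which 13 had no call either way. With 1 library left out, 804 kept both, 7 gained a call, 15 lost it, and 38 with no call either way changed direction. CEBPD changed so for ISRIB added to bortezomib without replicate 1 of bortezomib (-0.14) or of bortezomib and ISRIB (-0.24), from 0.10, and ATF5 for ISRIB against DMSO without ISRIB replicate 3 (-0.15), from 0.08. The cause of these changes was not tested.

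Of the 15 changes of direction, library totals alone gave 7, among them the 2 of called values, NUPR1 at -0.0588 for bortezomib added to ISRIB and ATF4 at -0.19 for bortezomib added to nelfinavir. The other 5 were ATF5 at -0.26, -0.05 and -0.44 for bortezomib added to ISRIB, added to nelfinavir and against nelfinavir, and JDP2 at -0.31 and CEBPB at -0.33 for bortezomib added to nelfinavir. They moved the median of all genes by -0.50 for bortezomib against DMSO, -0.51 for bortezomib added to nelfinavir, -0.54 for bortezomib added to ISRIB and -0.47 for bortezomib against nelfinavir. They called 2 of the 9 genes lower in place of 1 for bortezomib against DMSO, and 7 in place of 4 for bortezomib against nelfinavir. The counts of genes called higher and lower went from 3498 and 3275 to 1490 and 6266 for bortezomib against DMSO, and from 3639 and 3600 to 1584 and 6518 when it was added to nelfinavir. They went from 3694 and 3243 to 1532 and 6397 when it was added to ISRIB, and from 3191 and 2989 to 1197 and 6113 against nelfinavir.

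The count of the 9 genes called higher when ISRIB was added to bortezomib ran from 0 to 1 as single libraries were left out. For the ISRIB by bortezomib interaction, the covariate called 1 gene lower in place of 0. Over all genes, fitting only the compared groups changed 876 higher and 677 lower to 510 and 357 for ISRIB added to bortezomib, 1975 and 1694 to 1284 and 962 for nelfinavir added to bortezomib, and 1121 lower to 1948 for nelfinavir against DMSO. The covariate changed 677 lower to 1094 for ISRIB added to bortezomib, and 372 higher and 240 lower to 651 and 552 for its interaction, where DESeq2 gave 436 lower. Without replicates 3 and 4 of bortezomib with nelfinavir, 1694 lower became 1098, and without replicates 1 and 2 it became 1635. For ISRIB against DMSO edgeR called 0 genes (703 at an unadjusted p under 0.05), DESeq2 called 1 higher and 20 lower, and edgeR 5 and 34 with no filter, 4 and 76 with only those groups and 3 and 37 with the covariate.

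Among the single genes, ATF5 gained a call for bortezomib added to nelfinavir with no filter, the default filter, only those groups or the covariate (0.44 to 0.46), and for nelfinavir added to bortezomib with no filter (0.47). CEBPG gained one for nelfinavir added to bortezomib with no filter (0.40) and without replicates 3 and 4 of the combination (0.72, against -0.03 without replicates 1 and 2), and for bortezomib against nelfinavir with no filter (-0.46), only those groups (-0.42) or the covariate (-0.39). ATF4 lost its call for bortezomib added to nelfinavir with upper-quartile factors (0.22) or only those groups (0.32), and NUPR1 lost its call for nelfinavir added to bortezomib with only those groups (0.61). For bortezomib added to nelfinavir, CEBPB was called at 0.53 without replicates 3 and 4 of the combination and at -0.33, not called, without replicates 1 and 2, and CEBPG, not called, was at 0.27 and -0.47. The nelfinavir by bortezomib interaction of CEBPG lost its call without replicates 3 and 4, at -0.53, and was -1.27 without replicates 1 and 2. These pairs were chosen after seeing the data, so calls gained by leaving out the low libraries are no separate support.

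With replicate number as a replicate block, NUPR1 was not called for bortezomib added to ISRIB (0.48, edgeR adjusted p 0.0524), ATF5 was called for bortezomib added to nelfinavir (0.47, edgeR adjusted p 0.0402), and no other call of the 9 genes changed. Calls for bortezomib against DMSO were then 3519 higher and 3315 lower. The labels do not say that a number marks a shared culture. In the ISRIB group alone, the replicate numbers run in another order than the library numbers of the sample titles. A block or pairing by library number would match the ISRIB libraries otherwise and was not run. Between libraries of different groups, the correlation of their deviations from the group means passed 0.1 in 18 of 60 same-number pairs. It passed 0.1 in 33 of 180 pairs whose numbers differ.

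The libraries come from 1 cell line, 1 dose of each compound and 1 time. mRNA was measured at 10 h only, so its order in time, translation and protein are not shown. Relative levels depend on the scaling wherever bortezomib is on 1 side of a comparison. Reads of ATF4 and its pseudogenes, and those of DDIT3, ATF5 and their opposite-strand neighbours, and those of NUPR1 and the noncoding RNA on its strand, cannot be told apart in the bases they share. No group held nelfinavir with ISRIB, so whether the nelfinavir effects need the sensing of phosphorylated eIF2α was not tested.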

Other observations

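The balance between the factors shifted with the compound as well as their levels. These ratios of counts within a library compare groups with each other and not the levels of 2 genes. ATF3 counts were 0.00708 ± 0.00169 (SD, n = 4) of those of ATF4 in DMSO, 0.0136 ± 0.00138 in nelfinavir and 0.118 ± 0.0134 in bortezomib, and 0.0675 ± 0.00838 when ISRIB was added to bortezomib. NUPR1 counts were 0.0343 ± 0.00285 of those of ATF4 in DMSO, 0.0909 ± 0.00358 in nelfinavir, 0.0263 ± 0.00369 in bortezomib and 0.0161 ± 0.00285 when ISRIB was added to it. In the mean, nelfinavir raised both ratios over DMSO and ISRIB added to bortezomib lowered both. Bortezomib raised that of ATF3 and lowered that of NUPR1. Nelfinavir added to bortezomib went the other way from nelfinavir alone, with overlapping libraries. The means there were 0.105 ± 0.0250 for ATF3 and 0.0228 ± 0.000756 for NUPR1, both below bortezomib alone. In ISRIB alone the means were 0.00537 ± 0.00188 and 0.0276 ± 0.00306, both below DMSO. For the NUPR1 ratio, all 4 nelfinavir libraries, from 0.0857 to 0.0938, lay above all 4 bortezomib libraries, from 0.0208 to 0.0288. CEBPB counts were 0.687 ± 0.0423 of those of CEBPG in DMSO, 1.67 ± 0.132 in nelfinavir, 2.12 ± 0.31 in bortezomib and 1.91 ± 0.172 with both. It was 0.784 ± 0.213 in ISRIB and 1.79 ± 0.338 when ISRIB was added to bortezomib. These ratios were not tested, and scaling between libraries does not enter them.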
